A study of Homo sapiens with 3 samples.

Results

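Interferon-stimulated genes and genes that sense infection and carry the interferon signal were examined in PC3 cells, control or with a hairpin against USP16. The 49 genes are a list of symbols, drawn up because genes annotated to type I interferon signaling stood higher than most others under the USP16 hairpins, and all 49 were found among the 59719 gene names of the expression table. The same 3 libraries that drew attention to the genes supply their values, so what follows describes them and tests nothing.

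PC3 is an androgen-independent human prostate cancer cell line. Of the 3 RNA-seq libraries, 1 came from control PC3 cells (shCON) and 1 each from PC3 expressing shUSP16#1 or shUSP16#2. Both hairpins were in the pLKO.1 vector in cells selected with puromycin, and no differences in time or treatment are given. For its xenografts the paper calls shCON a vector control, and its list of sequences holds no control hairpin. Whether the shCON cells expressed a hairpin is thus unclear. If they did not, hairpin expression and loss of USP16 cannot be told apart. Whether a line was a clone or a pool is not given in the sources used here. With 1 library per condition no difference has a replicate check and no p-value can be given. Values are TPM, in which reads are divided by transcript length and scaled to the same sum in each library, so the depth is unknown. A change is the log2(TPM + 1) of a hairpin library less that of shCON, and because of the added 1 it comes out too small for genes of low level. Fewer cells of a type and less RNA per cell cannot be told apart in such bulk libraries.

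Type I interferons bind a receptor made of IFNAR1 and IFNAR2, and the kinases JAK1 and TYK2 on its chains then phosphorylate STAT proteins. STAT2 and IRF9 belong to the complex ISGF3, which binds the interferon-stimulated response element (ISRE) in promoters of antiviral genes. Upstream, DDX58 (RIG-I) and IFIH1 (MDA5) recognise foreign RNA and signal through MAVS, while cytosolic DNA signals through TMEM173 (STING), and both routes activate IRF3 and IRF7. Many of the induced genes are also transcribed at a basal level in tumour cells.

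The hairpins were directed at USP16, and their sense strands are shown because every comparison here rests on them.
shUSP16#1: gccagaagaaatcatgtttat
shUSP16#2: cggtgatattccacaagattt

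USP16 itself measured 19.9 TPM in shCON against 3.5 TPM (shUSP16#1) and 1.08 TPM (shUSP16#2), so the library labelled shUSP16#2 held less of the target. Across the 13637 genes whose mean over the libraries reached 1 TPM, called tested genes below, the median lay at -0.17 with shUSP16#1 and -0.37 with shUSP16#2, and changes relative to these medians are given where stated. The epithelial keratins KRT8 and KRT18 lay between 622 and 947 TPM, and KLK3 and KLK2, which mark the luminal prostate, were listed at 0 in all 3 libraries. Of 6 immune cell markers none exceeded 0.75 TPM in any library, and their sum was 1.06, 1.08 and 0.41 TPM in shCON, shUSP16#1 and shUSP16#2. Of 6 endothelial and fibroblast markers, 2 were at 0 throughout and the highest was COL1A1, at 4.19, 10.7 and 4.78 TPM in the same order. The part of these markers in the results was not tested.

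Promoter sequence is shown for 6 of the 22 members that stood higher under both hairpins, as examples that no stated rule picked. RefSeq promoter windows (GRCh38.p14), which run from 250 bases before to 50 bases after the start of a gene, were given for 36 of the 49 genes. They were searched on both strands for the ISRE core GAAANNGAAA and for the GAS element TTCNNNGAA, the site of STAT dimers, and a match means only that the letters are there. At least 1 window with the ISRE letters belonged to 19 of the 36 genes (52.8%), against 4.38% of all 27305 genes with a window. The GAS letters were found for 9 of the 36 (25%), against 9.38% of all genes. By role, the ISRE letters occurred in 17 of 25 effectors, 2 of 5 sensors and adaptors, and 0 of 6 genes of signalling. Each window below reads 5′ to 3′ on the strand of its gene, with the matches in capitals.
ISG15 (chr1:1013247-1013546, forward strand): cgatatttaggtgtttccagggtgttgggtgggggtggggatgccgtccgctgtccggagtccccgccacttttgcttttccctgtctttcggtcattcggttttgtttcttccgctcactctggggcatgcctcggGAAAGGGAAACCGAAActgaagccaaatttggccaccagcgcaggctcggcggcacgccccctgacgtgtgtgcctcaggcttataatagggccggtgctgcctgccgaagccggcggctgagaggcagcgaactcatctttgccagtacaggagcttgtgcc
IFI6 (chr1:27672143-27672442, reverse strand): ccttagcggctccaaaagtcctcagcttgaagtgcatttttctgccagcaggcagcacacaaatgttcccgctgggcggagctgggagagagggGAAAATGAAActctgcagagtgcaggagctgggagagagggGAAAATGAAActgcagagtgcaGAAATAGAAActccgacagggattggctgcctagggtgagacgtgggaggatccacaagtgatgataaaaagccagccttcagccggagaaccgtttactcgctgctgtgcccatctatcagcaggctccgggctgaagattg
IFITM1 (chr11:313790-314089, forward strand): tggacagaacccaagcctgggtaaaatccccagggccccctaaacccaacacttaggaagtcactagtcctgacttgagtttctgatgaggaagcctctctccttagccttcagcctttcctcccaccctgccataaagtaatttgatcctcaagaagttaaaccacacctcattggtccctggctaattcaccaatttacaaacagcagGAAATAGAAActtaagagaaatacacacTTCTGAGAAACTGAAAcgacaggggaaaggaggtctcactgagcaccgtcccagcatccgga
BST2 (chr19:17405581-17405880, reverse strand): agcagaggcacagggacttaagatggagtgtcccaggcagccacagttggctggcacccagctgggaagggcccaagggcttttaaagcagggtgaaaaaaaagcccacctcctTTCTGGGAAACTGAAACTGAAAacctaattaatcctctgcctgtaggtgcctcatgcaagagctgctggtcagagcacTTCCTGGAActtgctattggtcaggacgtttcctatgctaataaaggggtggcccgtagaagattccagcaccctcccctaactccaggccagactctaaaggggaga
IRF9 (chr14:24161015-24161314, forward strand): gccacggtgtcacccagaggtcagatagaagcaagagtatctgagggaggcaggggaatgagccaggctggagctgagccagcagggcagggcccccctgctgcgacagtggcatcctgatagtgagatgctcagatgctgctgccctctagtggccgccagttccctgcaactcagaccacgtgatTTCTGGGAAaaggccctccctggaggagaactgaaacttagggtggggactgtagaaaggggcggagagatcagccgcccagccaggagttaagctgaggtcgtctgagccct
UBE2L6 (chr11:57567886-57568185, reverse strand): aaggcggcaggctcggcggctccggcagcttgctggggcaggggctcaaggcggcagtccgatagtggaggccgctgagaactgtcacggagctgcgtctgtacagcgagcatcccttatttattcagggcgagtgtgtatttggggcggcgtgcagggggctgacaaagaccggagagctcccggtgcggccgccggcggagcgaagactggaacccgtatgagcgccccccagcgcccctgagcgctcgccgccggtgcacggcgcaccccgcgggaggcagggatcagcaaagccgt

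The ISG15 window held 2 overlapping ISRE matches and the IFI6 window 3 separate ones. In IFITM1 and BST2 an ISRE match overlapped a GAS match. IRF9 held 1 GAS match and no ISRE match, and so did OAS1, which was also higher under both hairpins and is not shown. UBE2L6 has 2 windows, of which the first is shown, and both lacked either match. Among members with a mean of at least 1 TPM, 10 of 16 with the ISRE letters were higher under both hairpins and 4 were lower, and of 16 with a window but without the letters 7 were higher and 7 lower. Over all genes at that level 24.5% were higher and 57.2% lower. BST2 is among the 10, and it reached that level only through the hairpin libraries. The list was drawn up because such genes stood higher, so nothing is read from this split.

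In shCON the 49 genes covered the whole range of expression. ISG15, a ubiquitin-like protein that is joined to other proteins, was the most abundant at 541 TPM, the 97.9th percentile of tested genes. IFITM3, a membrane protein that blocks virus entry, followed at 431 TPM, and IFITM2 at 119 TPM and SHISA5 at 107 TPM came next. At the other end, 7 genes had a mean under 1 TPM and were not tested. Of these, DHX58 was listed at 0 in all 3 libraries, RSAD2 (viperin) and XAF1 reached at most 0.16 and 0.08 TPM, and MX2, UBA7, HERC5 and IFI44L ranged from 0.22 to 1.53 TPM. The 42 tested genes were 26 effectors of 32, 6 sensors and adaptors of 7, and all 10 genes of signalling. The TPM of the effectors summed to 1513 in shCON, 2260 under shUSP16#1 and 1662 under shUSP16#2, and ISG15 and IFITM3 alone made up 971, 1492 and 1068 of these.

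**Figure D1:**
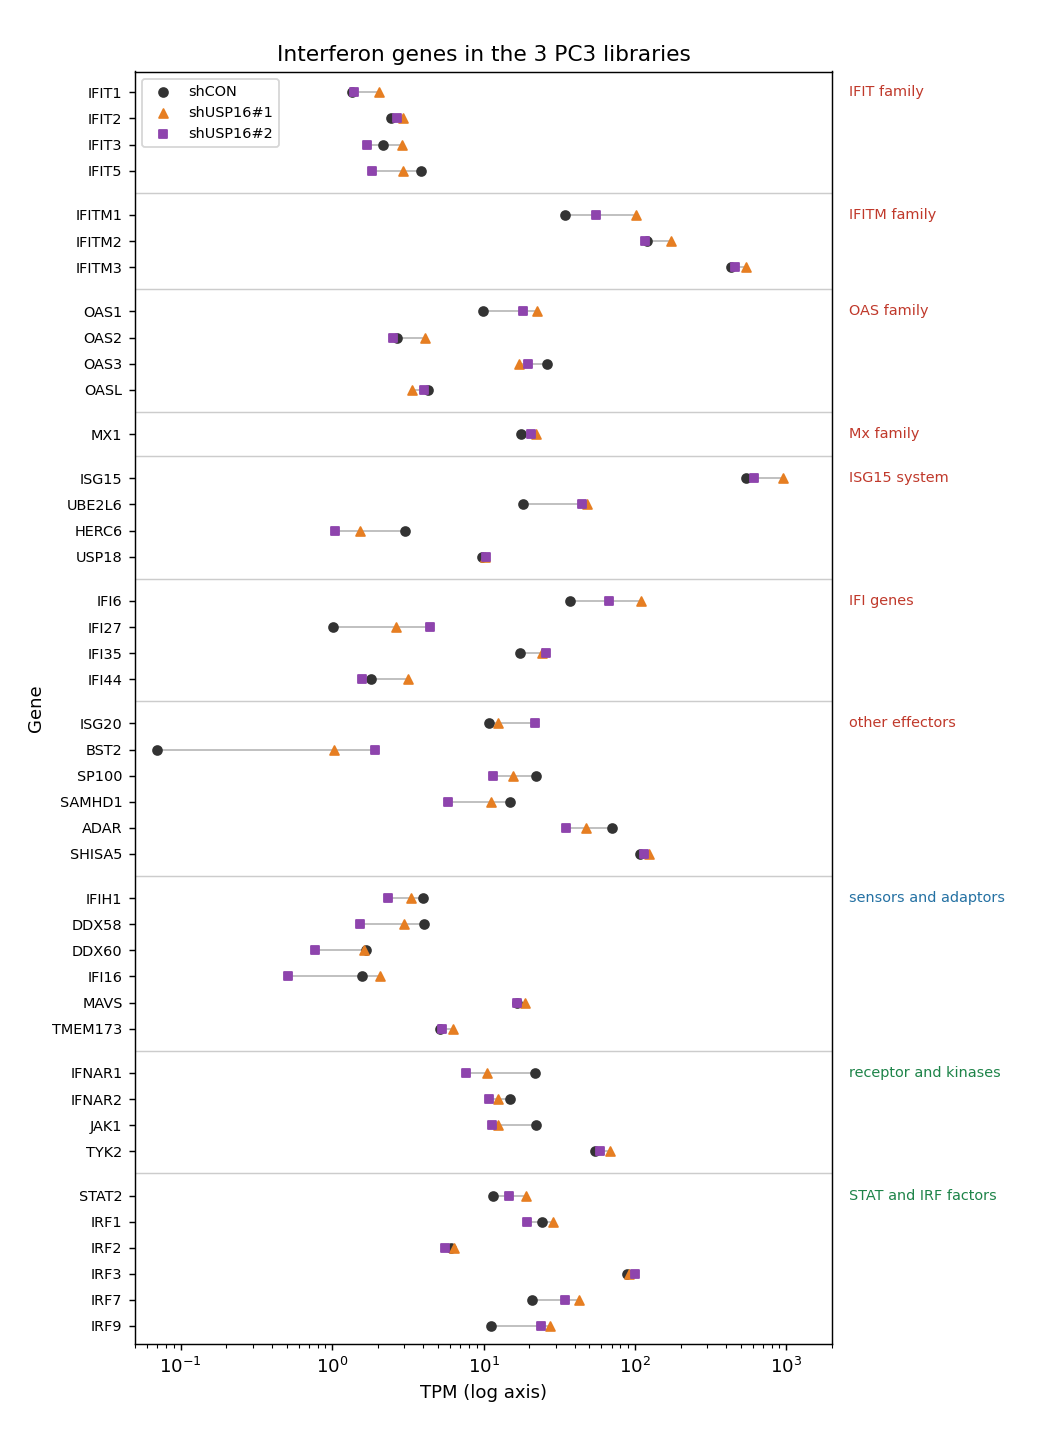
TPM (log axis) of the 42 tested genes in shCON (circles), shUSP16#1 (triangles) and shUSP16#2 (squares), grouped by role, with a grey line joining the lowest and highest of the 3 libraries. UBE2L6 and IRF9 stand clear of shCON under both hairpins, IFNAR1, JAK1 and HERC6 lie below it, and BST2 spans from 0.07 to 1.92 TPM.

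Of the 42 tested genes, 22 (52.4%) were higher under both hairpins, 13 (31.0%) were lower under both, and 7 (16.7%) differed in direction. Over all tested genes these shares were 24.5%, 57.2% and 18.1%. On the log2(TPM + 1) scale, at least a 2-fold rise under both hairpins was reached by 2 of the 42, UBE2L6 and IRF9, where the background was 1.14%, and no member reached a 2-fold fall under both (background 4.6%). These counts depend on the added 1. With 0.1 added in its place, IFI27 and BST2 also passed the 2-fold rise (background 2.1%) and IFNAR1 passed the 2-fold fall. BST2, at 0.07 TPM in shCON, was tested only because the hairpin libraries raised its mean to 1 TPM, so its rise was built in. With shUSP16#1 alone 5 members were at least 2-fold higher (background 2.83%) and 0 at least 2-fold lower (5.79%), and with shUSP16#2 alone 4 were higher (2.8%) and 2, SAMHD1 and IFNAR1, lower (19.5%). Above the median of tested genes under both hairpins stood 28 members (background 41.7%), and 8 of these exceeded it at least 2-fold (background 2.5%), namely IFITM1, OAS1, UBE2L6, IFI6, IFI27, BST2, IRF7 and IRF9. The genes were chosen for this contrast, so nothing is read from these shares. The groups differed in their medians, which for effectors were 0.31 and 0.08 under shUSP16#1 and shUSP16#2. The genes of signalling had medians of 0.15 and 0.0, and sensors and adaptors 0.06 and -0.58, with only 6 genes behind the last pair. Set against the medians over all tested genes, effectors stood at 0.48 and 0.44, signalling genes at 0.32 and 0.37, and sensors and adaptors at 0.24 and -0.21.

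**Figure D2:**
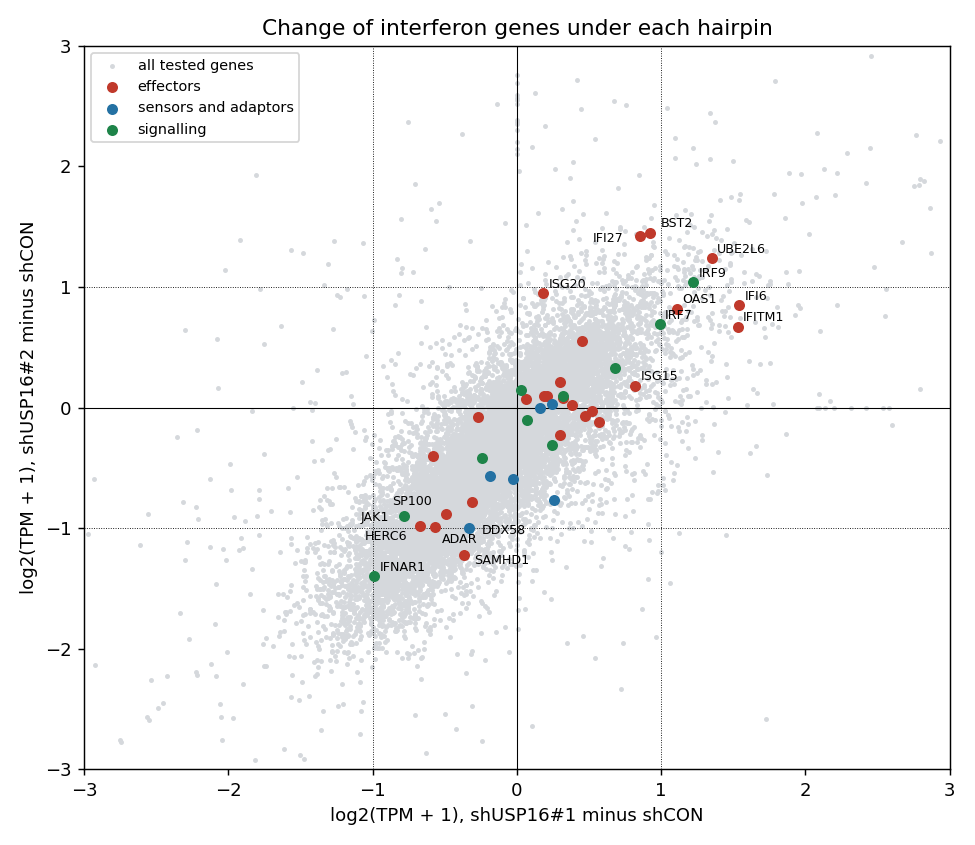
Change of log2(TPM + 1) under shUSP16#1 (horizontal) and shUSP16#2 (vertical) for all tested genes (grey) and the 42 members by class, with dotted lines at 2-fold and names for members past 0.8 under either hairpin (151 tested genes lie beyond the axes, and both axes share the shCON library). UBE2L6 and IRF9 are the members in the upper right corner, and IFNAR1 lies lowest at -0.99 and -1.40.

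Among effectors, the largest mean change of a gene was that of UBE2L6, a part of the ISG15 system. UBE2L6 (ENSG00000156587, chromosome 11 from 57551656 to 57568284, GRCh38), the conjugating enzyme for ISG15, measured 18.2 TPM in shCON against 48.0 TPM (shUSP16#1) and 44.5 TPM (shUSP16#2), changes of 1.35 and 1.24. Both hairpin libraries were more than 2-fold above shCON and close to each other. ISG15 was at 541, 952.5 and 612 TPM, with changes of 0.82 and 0.18, so only the shUSP16#1 library stood well above shCON. The activating enzyme UBA7 was at 0.92, 0.86 and 1.15 TPM and the ligase HERC5 at 0.35, 0.30 and 0.29 TPM, both too low to be tested. HERC6, a related ligase, was lower, at 3.02, 1.52 and 1.04 TPM. USP18, the protease that removes ISG15 and restrains the receptor, was at 9.79, 10.2 and 10.3 TPM, nearly level across the libraries. USP18 shares 23.4% of its 50-base windows with other genes, led by USP41, which was at 13.7, 0 and 6.11 TPM, and the sum of both genes was 23.5, 10.2 and 16.4 TPM. How reads were divided between the pair is not given in the sources used here, so the direction of USP18 is uncertain.

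The IFI genes were mostly higher. IFI6, a mitochondrial and endoplasmic reticulum protein with antiviral activity, measured 37.1 TPM in shCON against 109.7 TPM (shUSP16#1) and 67.5 TPM (shUSP16#2), changes of 1.54 and 0.85. IFI27, its relative, was at 1.02, 2.63 and 4.42 TPM, changes of 0.85 and 1.42. Both stood above shCON under each hairpin, but IFI6 was highest under shUSP16#1 and IFI27 under shUSP16#2. IFI35, a partner of NMI, was at 17.4, 24.2 and 26.01 TPM. IFI44, a cytosolic protein, was at 1.80, 3.16 and 1.58 TPM, above shCON under shUSP16#1 only.

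The IFITM proteins sit in membranes and hinder fusion of virus with the cell. IFITM1 measured 34.2 TPM in shCON against 101 TPM (shUSP16#1) and 54.9 TPM (shUSP16#2), changes of 1.53 and 0.67. IFITM2 was at 119, 172 and 117 TPM and IFITM3 at 431, 539.7 and 457 TPM, smaller changes on the log2 scale than that of IFITM1. All 3 were highest under shUSP16#1. These genes are near copies of each other, and IFITM1 shares 42.3% of its 50-base windows with other genes, led by IFITM2, so the split among them is uncertain. Their sum was 584 TPM in shCON against 813 TPM (shUSP16#1) and 629 TPM (shUSP16#2).

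The OAS family, which makes the 2′-5′-linked oligoadenylate that activates RNase L, did not move as a block. OAS1 measured 9.84 TPM in shCON against 22.5 TPM (shUSP16#1) and 18.1 TPM (shUSP16#2), changes of 1.11 and 0.82. OAS3, the largest of the enzymes, was at 26.3, 17.2 and 19.6 TPM, changes of -0.58 and -0.40. OAS1 was thus above and OAS3 below shCON in both hairpin libraries, and in shCON OAS3 was the more abundant of the pair while under shUSP16#1 OAS1 was. OAS2 at 2.69, 4.11 and 2.52 TPM and OASL, which lacks the enzyme activity, at 4.28, 3.39 and 4.01 TPM differed less.

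The IFIT proteins, which bind viral RNA, were low throughout. IFIT1, IFIT2 and IFIT3 ranged from 1.35 to 2.92 TPM over the 3 libraries and differed from shCON by at most 0.38 on the log2 scale. IFIT5 was lower under both hairpins, at 3.87 TPM in shCON and 2.92 and 1.83 TPM under shUSP16#1 and shUSP16#2. MX1, a GTPase that blocks influenza and other viruses, was at 17.7, 22.0 and 20.6 TPM, changes of 0.30 and 0.21. The changes of IFIT1 and MX1 were thus smaller than those of UBE2L6, IFI6 and OAS1.

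The other effectors divided. BST2 (tetherin), which holds virus particles at the cell surface, measured 0.07 TPM in shCON against 1.03 TPM (shUSP16#1) and 1.92 TPM (shUSP16#2). It passed the minimum of 1 TPM only through the hairpin libraries, and without it the effector medians were 0.30 and 0.07. ISG20, an exonuclease, was at 10.8, 12.4 and 21.8 TPM, higher mainly under shUSP16#2. SHISA5, a membrane protein of the endoplasmic reticulum, was nearly level, at 107, 125 and 115 TPM.
SAMHD1, which degrades deoxynucleotides, was at 14.8, 11.3 and 5.81 TPM, changes of -0.37 and -1.22. ADAR, which edits double-stranded RNA, was at 70.8, 47.4 and 35.2 TPM, changes of -0.57 and -0.99. SP100, a component of nuclear bodies, was at 22.2, 15.5 and 11.6 TPM, changes of -0.49 and -0.88. These 3 were lower under both hairpins and lowest under shUSP16#2.

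Sensors of RNA were lower under both hairpins, and adaptors nearly level. The change of DDX60 under shUSP16#1 was only -0.03, where the median of all tested genes was -0.17. With the trend with GC content removed, as described below, 5 of the 6 tested sensors and adaptors stood above the median of all genes under both hairpins (background 38.8%). DDX58 measured 4.03 TPM in shCON against 2.99 TPM (shUSP16#1) and 1.52 TPM (shUSP16#2), changes of -0.33 and -1.0. IFIH1 was at 3.95, 3.33 and 2.34 TPM, and the helicase DDX60 at 1.66, 1.61 and 0.77 TPM. All 3 kept the order shCON, shUSP16#1, shUSP16#2 from high to low. The DNA sensor IFI16 was at 1.57, 2.07 and 0.51 TPM, above shCON under 1 hairpin and below it under the other. The adaptors MAVS, at 16.7, 18.7 and 16.7 TPM, and TMEM173, at 5.18, 6.30 and 5.31 TPM, differed from shCON by at most 0.24 on the log2 scale.

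The receptor and its kinases were mostly lower. IFNAR1 (ENSG00000142166, chromosome 21 from 33324477 to 33359862) measured 21.9 TPM in shCON against 10.5 TPM (shUSP16#1) and 7.68 TPM (shUSP16#2), changes of -0.99 and -1.40. It had the most negative mean change of all 42 tested members and its TPM ratios to shCON were 0.48 and 0.351, so that it fell short of a 2-fold fall under shUSP16#1 only on the log2(TPM + 1) scale. IFNAR2, the other chain, was at 14.9, 12.5 and 10.9 TPM. IFNAR2 shares 43.2% of its windows with other genes, led by the overlapping AP000295.1, and the sum with that gene was 15.8, 12.8 and 11.2 TPM. JAK1 was at 22.1, 12.5 and 11.4 TPM, changes of -0.78 and -0.90, whereas TYK2, the partner kinase, was at 54.6, 68.3 and 58.8 TPM.

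The transcription factors were higher or level. IRF9 (ENSG00000213928, chromosome 14 from 24161053 to 24166565), the DNA-binding part of ISGF3, measured 11.1 TPM in shCON against 27.3 TPM (shUSP16#1) and 23.97 TPM (shUSP16#2), changes of 1.22 and 1.04. All 50-base windows of IRF9 also occur in the overlapping gene AL136295.5, which was at 1.37, 1.66 and 1.27 TPM, and with it added the sum was 12.5, 28.96 and 25.2 TPM. STAT2 was at 11.6, 19.1 and 14.8 TPM, changes of 0.68 and 0.33. Both IRF9 and STAT2 stood above shCON under each hairpin.
IRF7, which drives interferon-alpha genes, was at 20.9, 42.7 and 34.5 TPM, changes of 0.99 and 0.69. IRF3, its constitutive relative, was level at 89.2, 90.9 and 99.3 TPM. IRF1 at 24.2, 28.8 and 19.4 TPM and IRF2 at 6.05, 6.38 and 5.56 TPM lay slightly above shCON under shUSP16#1 and slightly below it under shUSP16#2.

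The interferons themselves were scarcely seen. Of 21 genes for type I, II and III interferons, 17 were listed at 0 in all 3 libraries. IFNB1 was at 0.09 TPM in shCON and listed at 0 under both hairpins, and IFNE was at 0.13, 0.04 and 0 TPM. IFNL1 was at 0.21, 0.09 and 0.31 TPM, and IFNL2 was listed at 0, 0 and 0.25 TPM.

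Another 82 genes of the pathway, interferons included, were listed to see how far the pattern reached, and 42 of them were tested. Of these, 11 were higher under both hairpins and 24 lower (26.2% and 57.1%), shares near those of all tested genes. None was at least 2-fold higher under both hairpins (background 1.14%), and 4 (9.52%, background 4.6%) were at least 2-fold lower, namely PTPN11, ZC3HAV1, PNPT1 and LAMP3. PTPN11 (SHP2), a phosphatase of many receptors, measured 62.0 TPM in shCON against 28.6 TPM (shUSP16#1) and 8.62 TPM (shUSP16#2), changes of -1.09 and -2.71. ZC3HAV1 (ZAP), which binds CpG-rich viral RNA, was at 9.63, 4.19 and 4.15 TPM. PNPT1, a mitochondrial ribonuclease, was at 25.1, 11.7 and 7.63 TPM, and LAMP3, a lysosomal membrane protein, at 22.4, 9.74 and 7.10 TPM. The 19 other interferon-stimulated genes had medians of -0.15 and -0.51, and the 9 other genes of sensing -0.19 and -0.58. The 7 negative regulators, SOCS proteins and phosphatases among them, had medians of -0.54 and -0.70.

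**Figure D3:**
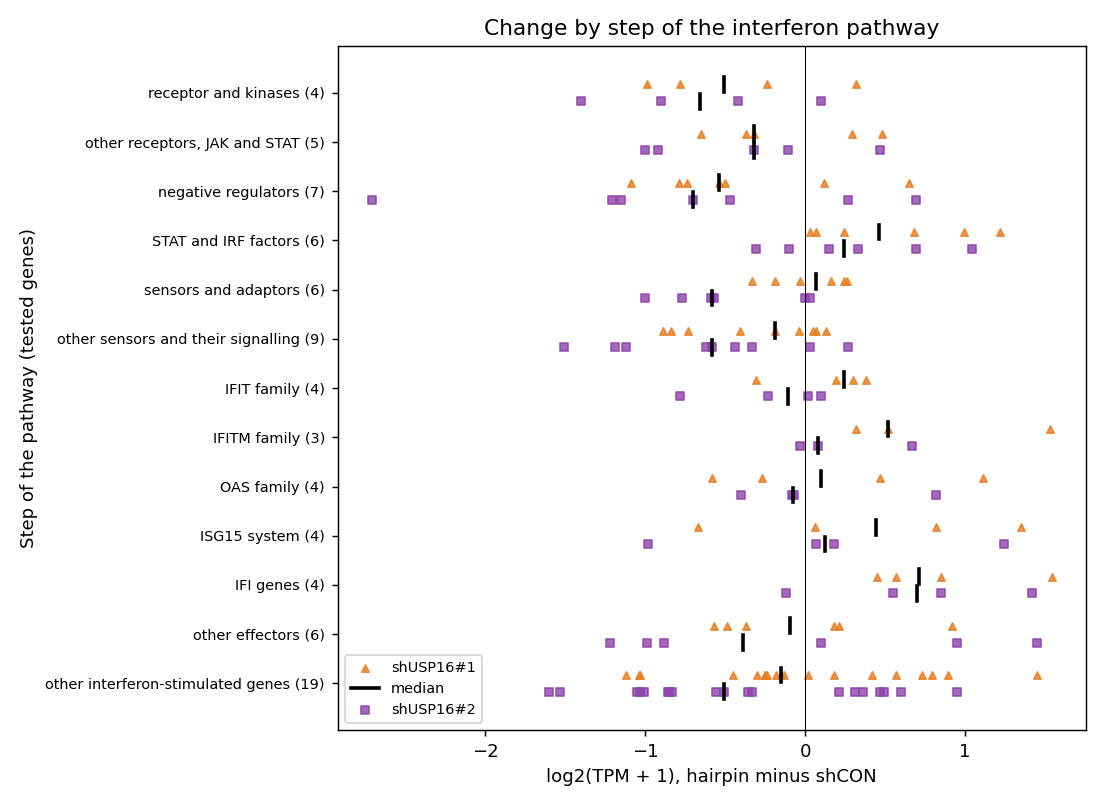
Change of log2(TPM + 1) for tested genes at each step of the pathway under shUSP16#1 (triangles) and shUSP16#2 (squares), with black bars for medians and the number of tested genes in brackets. The IFI genes, the STAT and IRF factors, the IFITM family and the ISG15 system have medians above 0 under both hairpins. Medians below 0 under both include those of the receptor and kinases, the negative regulators and the other interferon-stimulated genes. All tested genes also have medians below 0 (-0.17 and -0.37), and relative to these the other interferon-stimulated genes stand at 0.02 and -0.14.

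In TPM, the depth of the knockdown and the levels of the members did not run in parallel for most genes. The order shCON, shUSP16#2, shUSP16#1 from low to high was found for 16 of the 42 genes (38.1%, background 13.7%). ISG15, IFI6, IFITM1, UBE2L6, OAS1, IRF7 and IRF9 were among them. The orders depend on the scale, because the median of all tested genes was lower under shUSP16#2 (-0.37) than under shUSP16#1 (-0.17). Relative to these medians UBE2L6 stood at 1.52 (shUSP16#1) and 1.61 (shUSP16#2), and IRF9 at 1.4 and 1.41. The other genes just named stayed higher under shUSP16#1. A steady increase from shCON over shUSP16#1 to shUSP16#2, the order of falling USP16, was found for 6 genes, USP18, IFI27, IFI35, ISG20, BST2 and IRF3 (14.3%, background 10.8%). With USP18 counted together with USP41 the number was 5, and the members higher under both hairpins were 21 in place of 22. A steady decrease was found for 11 genes (26.2%, background 46.5%), including IFNAR1, JAK1, SAMHD1, ADAR, DDX58 and IFIH1. The order shUSP16#1, shUSP16#2, shCON from low to high was found for OAS3 and OASL (background 10.4%), 7 genes had shCON in the middle and shUSP16#1 highest (12.9%), and 0 had shCON in the middle and shUSP16#2 highest (4.53%). In all, 34 of 42 (81.0%) were higher under shUSP16#1 than under shUSP16#2, against 73.4% of tested genes.

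The members that were higher and lower also differed in base composition and length. Over the 42 genes the change had a rank correlation with GC content of 0.46 under shUSP16#1 and 0.67 under shUSP16#2, and with transcript length of -0.70 and -0.62. These are descriptions across genes that share the same 3 libraries. Over all tested genes the rank correlation with GC content was 0.53 and 0.63. That with transcript length is not given here for all tested genes, so whether it is particular to the members cannot be told. Of the 24 tested members at or above the median GC content of tested genes, 49.1%, 19 were higher under both hairpins and 3 lower, and of the 18 below it 3 were higher and 10 lower. All tested genes divided in the same direction, with 41.3% higher and 36.3% lower at or above that GC content and 7.45% higher and 79.1% lower below it. When the trend with GC content was removed, 28 of the 42 members (66.7%) stood above the median of all genes under both hairpins, against a background of 38.8%. Of the 22 members higher under both hairpins 18 were among these, and ISG15, SHISA5, TYK2 and IRF3 were not. Of the 13 lower members, 7 stayed below the median under both hairpins (OAS3, HERC6, SP100, SAMHD1, ADAR, IFNAR1 and JAK1), while IFIT5, OASL, IFIH1, DDX58, DDX60 and IFNAR2 did not. UBE2L6, IRF9 and OAS1 remained at least 2-fold above that median under both hairpins (background 1.59%), with values of 1.28 and 1.25, 1.20 and 1.13, and 1.33 and 1.22. The part of GC content and of length in the results was not tested further.

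**Figure D4:**
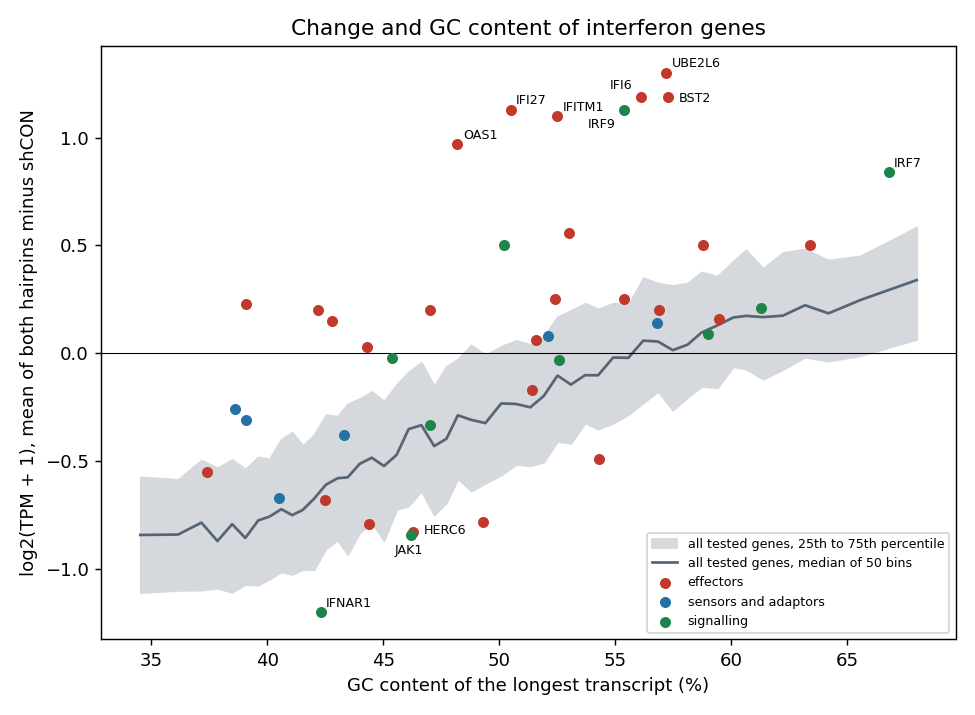
Mean change of both hairpins on the log2(TPM + 1) scale against the GC content of the longest transcript, for the 42 members by class, over the median (line) and the 25th to 75th percentile (band) of all tested genes in 50 bins of GC content. Of the members 23 lie above the band, the 8 named at the top among them, 14 within it and 5 below it, namely IFNAR1, JAK1, HERC6, ADAR and OAS3.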

How the data were processed

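The authors deposited TPM values to 2 decimals, 60930 rows by 3 libraries, made on the Majorbio Cloud Platform. Per the submitters' processing notes CASAVA, HISAT2 and the build hg19 were used. The quantifier and annotation are not given in the sources used here. TPM keeps no depth, so no interval could be given. The 3 columns that repeat a name were not used, nor was the length column. Where a name occurred more than once the entry with the highest mean was kept (1211 left out), and size of change (pseudocount 1) was examined in 13637 genes averaging 1 TPM or more. A gene was counted past the threshold at 2-fold under both hairpins. Positions, GC content, transcript length and shared 50-base windows came from the longest transcript in GENCODE release 29 (GRCh38), matched by gene ID, and coordinates of the files' own build were not used. To take out the GC trend, genes (97.5% of those tested) were placed in 50 bins by GC content, and the bin median was replaced with the median over all genes.

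The members and the lists were chosen with earlier results of these data known. All members could be named; outside them, USP16, interferons above 0, pathway genes past 2-fold under both hairpins, and markers by range. KRT8, KRT18, KLK2, KLK3, COL1A1 and genes that share sequence or exons with a member (AL136295.5, AP000295.1 and USP41) were named after their values were seen. Some genes named by the rule are not reported here. Alternatives were a pseudocount of 0.1, no minimum, a minimum of 5 TPM, centring on the median, removal of the GC trend, and each hairpin alone. Removal of the GC trend together with centring, and USP18 counted with USP41, were added after seeing the data. The procedure was tested on simulated data. Calculations ran in Python 3.11.15 with pandas 2.3.3, numpy 2.4.6 and scipy 1.17.1, and plots in matplotlib 3.10.9.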

Additional observations from a re-analysis of the deposited data

How the results depend on the processing

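No paired analysis was possible because the groups hold a lone library each. With a pseudocount of 0.1 the mean change of USP16 moved from -2.77 to -3.28, with centring to -2.50, with the GC trend removed to -2.20, and it was -2.22 under shUSP16#1 alone and -3.33 under shUSP16#2 alone. The effector median of the mean of both hairpins, 0.20, became 0.25 with a pseudocount of 0.1 and with a minimum of 5 TPM, 0.15 with no minimum, 0.47 centred, 0.11 with the GC trend removed, 0.39 with both, 0.31 under shUSP16#1 alone and 0.08 under shUSP16#2 alone, so its sign held in each. The median of sensors and adaptors, -0.28, became -0.51 with a pseudocount of 0.1, -0.01 centred, -0.03 with the GC trend removed and -0.58 under shUSP16#2 alone. It reversed to 0.11 with a minimum of 5 TPM, which leaves MAVS and TMEM173, to 0.06 under shUSP16#1 alone and to 0.25 with the GC trend removed and centring. The signalling median, 0.04, became 0.03 with a pseudocount of 0.1, 0.31 centred, 0.15 under shUSP16#1 alone, 0.0 under shUSP16#2 alone and 0.08 with the GC trend removed and centring, and it reversed to -0.19 with the GC trend removed. The members past a 2-fold rise with each hairpin numbered 2, which turned into 4 at a pseudocount of 0.1 (IFI27 and BST2 joined). Over all tested genes that pseudocount moved the share from 1.14% to 2.1%. The number of members was 8 centred, 0 with the GC trend removed, 5 under shUSP16#1 alone and 4 under shUSP16#2 alone. Members at least 2-fold lower numbered 1 instead of 0 with a pseudocount of 0.1 (IFNAR1) and 2 under shUSP16#2 alone (SAMHD1 and IFNAR1). Of the other pathway genes, 1 was 2-fold higher when centred and 1 under shUSP16#1 alone instead of 0, and the 4 that were 2-fold lower numbered 0 after centring, 0 after the GC trend was taken out and 12 under shUSP16#2 alone. Apart from what the construction of an alternative shows, the cause was not tested.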

Other observations

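Several members lie beside relatives on the same chromosome. On chromosome 12 (GRCh38), OAS1 lies from 112906777 to 112933222, followed by OAS3 from 112938352 to 112973249, and their changes under shUSP16#1 and shUSP16#2 were 1.11 and 0.82 for OAS1 and -0.58 and -0.40 for OAS3. On chromosome 21, IFNAR2 and IFNAR1 lie within one stretch from 33229901 to 33359862, and the mean change was -0.33 for IFNAR2 and -1.20 for IFNAR1. USP16 lies on the same chromosome, from 29024629 to 29054488. So does MX1, from 41420304 to 41459214, which was higher, with changes of 0.30 and 0.21. A part of position in these changes was not tested. On chromosome 10, the 4 IFIT genes lie from 89283694 to 89421001, and the mean change ran from -0.55 for IFIT5 to 0.20 for IFIT1.

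The deposited table annotates 48 tested genes to type I interferon signaling, and 30 of them are members. The medians of the other 18 were 0.26 under shUSP16#1 and 0.37 under shUSP16#2, with 10 genes higher under both and 1 lower. Among members, the 30 that carry the annotation had medians of 0.31 and 0.09, and the 12 tested members without it 0.11 and -0.34. The list was drawn up with the annotation in view, so the difference is a description.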
